A study of Rattus norvegicus with 4 samples.

Results

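Translation initiation, elongation and termination factors were followed across ribosome profiling libraries of rat heart muscle cells with and without phenylephrine. Members were the genes whose name starts with Eif or Eef, leaving out the Eif2ak kinases, together with Etf1, Gspt1, Pabpc1 and Pabpc4, each represented by its annotated open reading frame (ORF) with most footprint counts. The rule used names only, and it found 61 genes of the 13694 with an annotated ORF. Gspt1 and the eIF3 subunits Eif3e, Eif3h and Eif3i were not analysed here. All libraries came from neonatal ventricular cardiomyocytes of Sprague-Dawley rats at postnatal day 2, plated briefly first to deplete other cell types and then cultured in serum-containing medium. The PE group received phenylephrine, an α1-adrenergic agonist that makes cultured cardiomyocytes grow, for 24 h at 20 µM, and the control group was untreated. Each group had 2 libraries, assigned by their titles, since the protocol text of the control libraries also mentions PE. Whether the libraries of a group are separate cultures is not stated, and every p-value here gauges library-to-library spread that could be technical.

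A ribosome starts on an mRNA when the factor eIF2 brings the initiator tRNA, eIF3 with eIF1 and eIF1A prepares the small subunit, and the cap-binding eIF4 factors recruit it to the message. The elongation factors eEF1A, recharged by the eEF1B complex, and eEF2 then deliver tRNAs and move the ribosome along, and eRF1 (Etf1) reads the stop codon. Many mRNAs of elongation factors carry a terminal oligopyrimidine (TOP) tract at their 5′ end, through which mTOR signalling controls their translation. Growth of cardiomyocytes rests on protein synthesis, which makes these factors a common object of study in hypertrophy.

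Library totals ran from 11446574 to 13827599 counts. Footprint counts reflect the amount of an mRNA and how heavily it is translated, and these contributions are not separated here because RNA-seq was not analysed. Markers fixed for the labelled cell type were abundant: 9 cardiomyocyte genes summed to 79960 and 79955 CPM (counts scaled to library size) in control and 95758 and 96520 CPM in PE. Of these 9, 3 were higher (Nppa, Actc1 and Tnnt2) and 6 lower, myoglobin (Mb) and Ryr2 among them at 0.257-fold and 0.547-fold. Of 7 fibroblast markers, 6 could be tested, with 5 lower and 1 higher in PE, and their summed level was 33475 and 33785 CPM in control and 19907 and 20130 CPM in PE. Col1a2 had 0 counts in 3 libraries and 2 counts in the other. The deposited annotation lists 158850 footprint positions for it, pooled over libraries, so these counts do not show that it was untranslated. The 5 macrophage markers summed to 339 to 360 CPM in control and 245 to 246 CPM in PE, with 4 of the 5 lower, and the 4 endothelial markers analysed to 193 to 201 and 114 to 122 CPM, with 2 lower. The 4 smooth muscle markers summed to 1419 and 1428 CPM in control and 1256 and 1255 CPM in PE, but went opposite ways, with Cnn1 4.56-fold higher and Tagln, Myh11 and Acta2 lower. Fewer cells of a type, less mRNA per cell and less translation of each mRNA cannot be told apart in such bulk samples. The part of these shifts in the results below was not tested.

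Footprints on translation factors were mostly higher after PE, by small amounts. Of 61 members, 58 passed the filter on low counts. Among these, 33 were higher and 1, the elongation factor kinase Eef2k, was lower at an adjusted p under 0.05 in edgeR's quasi-likelihood test, while 24 did not pass. Over all 12609 ORFs tested, 21.4% were higher and 21.3% lower, the shares beside which the counts by role below stand. The libraries of the groups did not overlap in 47 of the 58 tested members and in 68.6% of all ORFs tested. Among all genes with a mean count of at least 500, 36.9% were higher and 30.3% lower, and among the 36 members at that depth 27 were higher and 0 lower. That depth split was added after seeing the data. At an unadjusted p under 0.05, Eef2k was again the 1 member lower, and DESeq2 called 26 members higher and 1, Eef2k, lower. The median log2 fold change of the tested members was 0.24, with a range from -0.61 to 1.00, against 0.00 over all ORFs. A change of 1.5-fold or more was reached by 4 members, Eif5a2, Eef1g, Eif1a and Eef2k.

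Summed over all members, control libraries held 8558 and 8531 CPM and PE libraries 10153 and 10190 CPM, a ratio of 1.19. The 8 members grouped as elongation factors, Eef1e1 among them, made up 3237 ± 9.97 CPM in control (SD, n = 2). In PE they made up 4101 ± 53.2 CPM, a ratio of 1.27. The other members together went from 5307 ± 9.32 to 6070 ± 26.7 CPM, a ratio of 1.14. In both sums the PE libraries lay above the control libraries by far more than libraries of a group differed from each other.

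**Figure D1:**
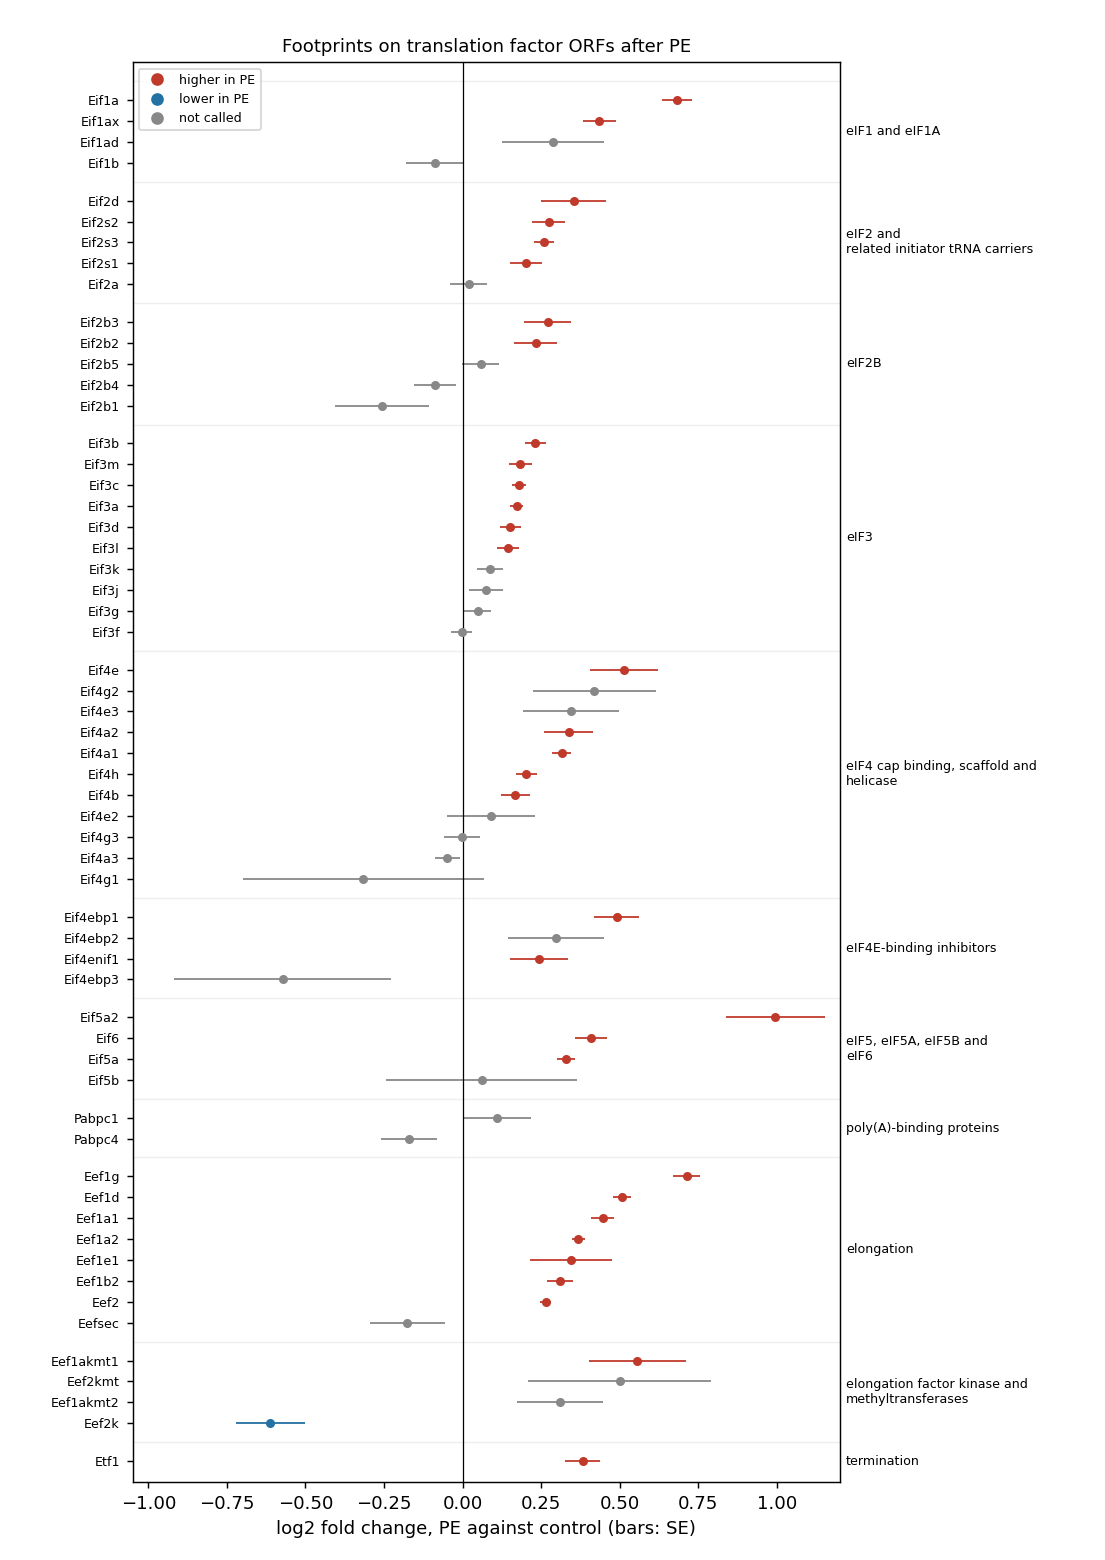
Log2 fold change of PE against control for the 58 tested translation factor ORFs, grouped by role, with standard errors as bars. Most points lie to the right of 0, from 0.14 to 1.00 among the 33 higher in PE (red), and Eef2k at -0.61 is the one lower in PE (blue).

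Of 8 members grouped as elongation factors, 7 were higher, Eef1e1 among them, against 21.4% of all ORFs tested. The selenocysteine factor Eefsec was not called at -0.18 ± 0.12 (log2, SE). Eef2, the translocase that moves the ribosome by 1 codon, stood at 1659 and 1636 CPM in the control libraries and at 1955 and 2002 CPM in the PE libraries. Its groups did not overlap, as in 68.6% of all ORFs tested, and it rose 1.20-fold (edgeR adjusted p = 7.1e-15). Eef1a2, the muscle and neuron form of the tRNA carrier eEF1A, had 869 and 887 CPM in control and 1117 and 1150 CPM in PE. This is a 1.29-fold rise (edgeR adjusted p = 1.4e-16), with PE libraries well above control. Eef1a1, the form of most other cells, had 155 and 158 CPM in control and 212 and 214 CPM in PE, 1.36-fold higher (edgeR adjusted p = 8.0e-12). The deposited annotation also lists P-sites, footprint positions assigned to the peptidyl site of the ribosome and pooled over libraries. For Eef1a1 only 0.0536 counts were listed per P-site, where the median gene had 1.15, so its counts cover few of its listed P-sites.

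The subunits of eEF1B, which reloads eEF1A with GTP, rose as well. Eef1g, its structural subunit, had 120 and 112 CPM in control and 194 and 186 CPM in PE. It rose 1.64-fold (log2 0.71 ± 0.04, SE; edgeR adjusted p = 3.0e-15), with 0.344 counts per P-site. Eef1d, an exchange subunit by its gene name, had 272 and 264 CPM in control and 378 and 383 CPM in PE, a 1.42-fold rise at 1.20 counts per P-site. Its ORF is 1950 nt long, where that of Eef1b2 has 675 nt. Which protein form of Eef1d these footprints belong to was not tested. Eef1b2, the other exchange subunit, had 138 and 142 CPM in control and 177 and 170 CPM in PE, 1.24-fold higher. In all 3 subunits the PE libraries lay above control. Eef1e1, a scaffold of the tRNA synthetase complex, is grouped here by its name. It had 11.7 and 12.6 CPM in control and 14.8 and 16.2 CPM in PE and passed narrowly (edgeR adjusted p = 0.033). Its call was lost without control replicate 1 (adjusted p = 0.15), control replicate 2 (adjusted p = 0.056) or the second PE library (adjusted p = 0.21), after removal of a trend with ORF length (adjusted p = 0.14), with library totals alone (adjusted p = 0.063) and in DESeq2 (adjusted p = 0.23).

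**Figure D2:**
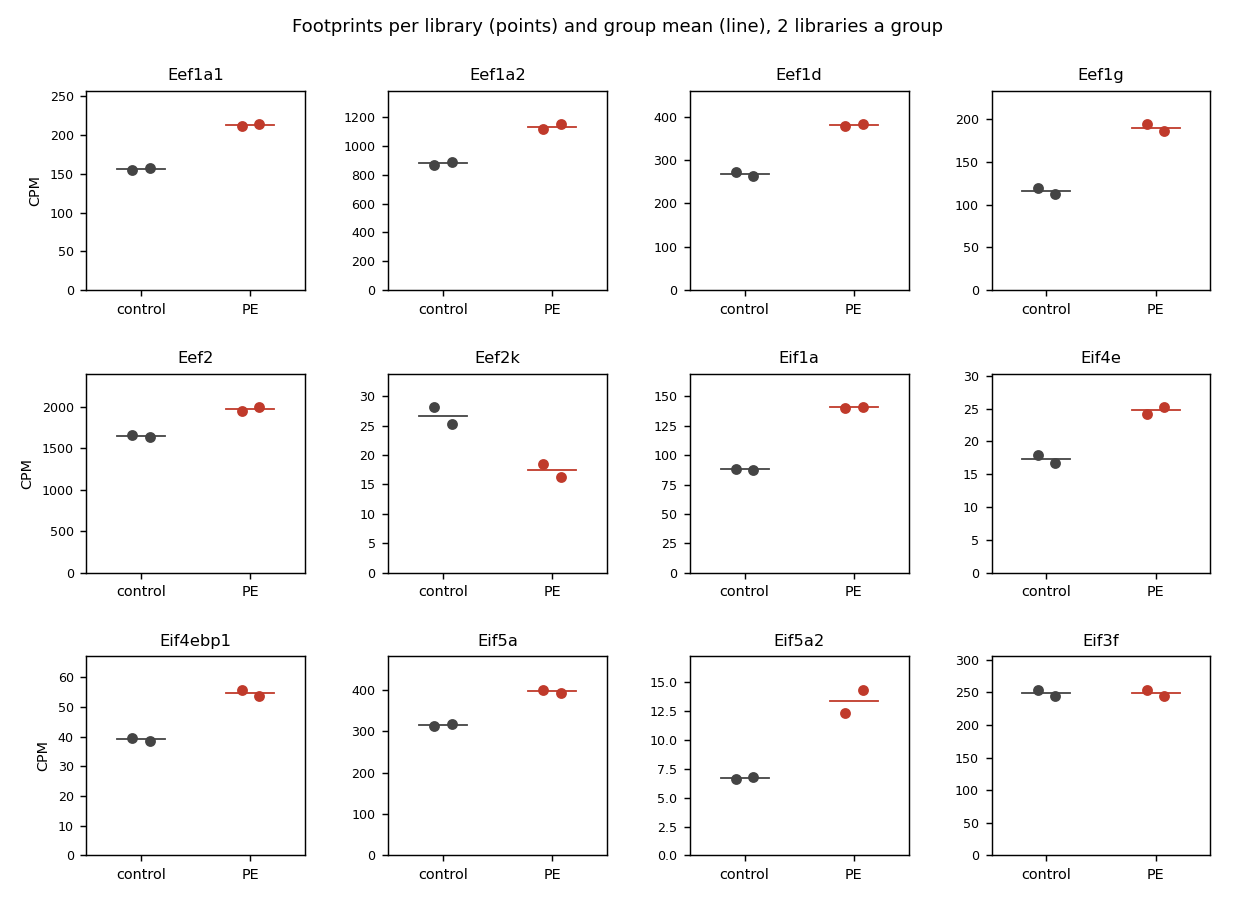
Footprint counts in CPM in each library (points) with group means (lines) for 12 members, each panel with its own axis from 0. The PE libraries lie above both control libraries in all panels but Eef2k, where they lie below, and Eif3f, where the groups overlap.

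Start-site sequences are shown for 5 members of a textbook list of TOP mRNAs with a window in the RefSeq promoter table (GRCr8), because this tract is the feature for which the mRNAs of elongation factors are known. Each run gives 30 bases, 15 before the annotated gene start and 15 from it onwards, 5′ to 3′. Capitals mark a C followed by at least 4 bases that are each C or T, beginning within 5 bases of the start.
Eef1a1 (chr8:88225055-88225084, minus strand): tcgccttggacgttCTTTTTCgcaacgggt
Eef1a2 (chr3:188652619-188652648, minus strand): cgctcgggtacatctctgcagctgcgtcct
Eef1b2 (chr9:72074076-72074105, plus strand): tttccggccggtcccggCCCTTTTTCTCCC
Eef1g (chr1:215289800-215289829, plus strand): tttctctgcggaatcaccatggcggctggg
Eif3f (chr1:172369047-172369076, plus strand): tcacgcccttccgttctagCCTCTCTCTTT

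The tract was found at the annotated start of Eef1a1, Eef1b2 and Eif3f and not in these windows for Eef1a2 and Eef1g. Of 56 members matched by symbol, 26.8% had such a match, against 17% of 33469 windows of the table. A member counted once if any of its windows matched, 60 windows in all, while the share of the table is per window. The same holds for the E-box shares below. Members were called higher in 8 of 14 tested genes with the match and in 22 of 39 without it. The E-box CACGTG, which reads the same on both strands, lay in the 300-base window of 21.4% of matched members and of 6.42% of all windows, and 7 of 12 members with it and 23 of 41 without it were called higher. Of the 9 members on the TOP list, which included Eef1d, Eif4b and Pabpc1 without a window, 7 were higher and 0 lower, with a median log2 fold change of 0.31. The other 49 tested members had 26 higher and 1 lower, with a median of 0.23. The tracts of Eif3f and Eef1b2 run on past the printed bases. Eif3f, with its tract of 14 bases, had 254 and 245 CPM in control and 253 and 245 CPM in PE, overlapping groups and a log2 fold change of -0.00 ± 0.03. Eef1g, with no match, had the largest log2 fold change of the 9. Its printed bases hold an ATG just after the annotated start, so whether its mRNA begins with a tract cannot be read from this window.

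Factors that open the small subunit and select the start codon were measured through eIF1 and eIF1A. Eif1a, whose ORF is listed without introns on chromosome 18 (Rnor_6.0, 40596260 to 40596694), had 88.2 and 87.5 CPM in control and 141 and 141 CPM in PE. It rose 1.60-fold (edgeR adjusted p = 6.2e-14), with PE libraries far above control. Eif1ax, on the X chromosome (37580172 to 37592889), had 74.9 and 75.0 CPM in control and 101 and 102 CPM in PE, a 1.35-fold rise (edgeR adjusted p = 2.9e-08). The 2 ORFs encode proteins of 144 residues that are identical at 142, so reads could be split between them and each value is uncertain. Eif1ad, an eIF1A-like protein, was not called at 0.29 ± 0.16 (log2, SE), nor was Eif1b, an eIF1 paralog, at -0.09 ± 0.09. Eif1 itself had 11260 P-sites but 2, 3, 2 and 0 counts in the 4 libraries and could not be tested.

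All 3 subunits of eIF2, which carries the initiator methionine tRNA, rose together. Eif2s3, the γ subunit that binds the tRNA, had 236 and 238 CPM in control and 286 and 281 CPM in PE, a 1.20-fold rise (edgeR adjusted p = 3.6e-08). Eif2s2, the β subunit, had 87.4 and 82.8 CPM in control and 102 and 103 CPM in PE, 1.21-fold higher. Eif2s1, the α subunit that stress kinases phosphorylate, had 102 and 104 CPM in control and 123 and 114 CPM in PE, 1.15-fold higher. Each had its PE libraries above its control libraries. Eif2d, an alternative tRNA-delivering factor, rose 1.28-fold from 21.3 ± 0.704 CPM (SD, n = 2; edgeR adjusted p = 0.0055), a call lost without PE replicate 2 (adjusted p = 0.076) and in DESeq2 (adjusted p = 0.079). Eif2a, a separate initiation factor despite its name, had 74.8 and 69.3 CPM in control and 73.3 and 72.3 CPM in PE and was not called. The Y-linked copy Eif2s3y, identical to Eif2s3 at 464 of 472 residues, had 134 P-sites and 0 counts, which allows up to 3 counts per library by counting error alone.

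The eIF2B complex reloads eIF2 with GTP and is the target of the integrated stress response. Of its 5 subunits, 2 were higher and 0 lower in edgeR's quasi-likelihood test at an adjusted p under 0.05. Over all ORFs tested, 21.4% were higher and 21.3% lower. Eif2b3 had 38.6 and 40.1 CPM in control and 49.2 and 45.8 CPM in PE, 1.21-fold higher (edgeR adjusted p = 0.0039), and Eif2b2 46.7 and 45.9 CPM against 53.2 and 55.6 CPM, 1.17-fold higher (edgeR adjusted p = 0.0067). Eif2b3 was no longer called without PE replicate 1 (adjusted p = 0.065), Eif2b2 without PE replicate 2 (adjusted p = 0.064), and neither in DESeq2 (adjusted p of 0.069 and 0.099). The catalytic subunit Eif2b5 had 72.7 and 77.5 CPM in control and 76.2 and 80.4 CPM in PE, overlapping and not called. Eif2b4 and Eif2b1 had log2 fold changes of -0.09 ± 0.07 and -0.26 ± 0.15 (SE) and did not pass.

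eIF3, the large scaffold that binds the small subunit, moved by small amounts. Of 10 subunits measured, 6 were higher and 0 lower in edgeR's quasi-likelihood test. Among all genes with a mean count of at least 500, which each subunit reached, 36.9% were higher and 30.3% lower. The subunits had a median log2 fold change of 0.15 and no value above 0.23. Eif3a, the largest subunit (chromosome 1, 282140699 to 282169833), had 674 and 692 CPM in control and 774 and 766 CPM in PE. It rose 1.13-fold (edgeR adjusted p = 4.7e-08) with groups apart. Eif3c had 566 and 568 CPM in control and 642 and 642 CPM in PE, also 1.13-fold higher. Eif3b rose 1.17-fold from 240 ± 3.02 CPM (SD, n = 2), the largest change in the complex, followed by Eif3m with 1.14-fold. Eif3d and Eif3l rose by 0.15 and 0.14 on the log2 scale. Eif3f, Eif3g, Eif3j and Eif3k did not pass, at log2 fold changes of -0.00, 0.05, 0.08 and 0.09, although Eif3j and Eif3k were called without PE replicate 2 (edgeR adjusted p of 0.042 and 0.049).

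Of the 11 eIF4 factors, which bind the cap, unwind the leader and bridge to the ribosome, 5 were higher and 0 lower in edgeR's quasi-likelihood test. Over all ORFs tested, the shares were 21.4% higher and 21.3% lower. Eif4e, the cap-binding protein (chromosome 2, 243820709 to 243850928), had 18.0 and 16.8 CPM in control and 24.2 and 25.3 CPM in PE. It rose 1.43-fold (log2 0.51 ± 0.11, SE; edgeR adjusted p = 2.2e-04), with 0.216 counts per P-site. The helicase Eif4a1 had 285 and 270 CPM in control and 344 and 346 CPM in PE, 1.24-fold higher with 0.340 counts per P-site. Its paralog Eif4a2 had 36.9 and 34.7 CPM against 46.0 and 44.4 CPM, 1.26-fold higher with 0.114 counts per P-site. The helicase cofactor Eif4h rose 1.15-fold to 249 ± 3.71 CPM (SD, n = 2). Eif4b, the other cofactor, had 119 and 115 CPM in control and 128 and 134 CPM in PE (1.12-fold, edgeR adjusted p = 0.0036), and lost its call without control replicate 2 (adjusted p = 0.056), without PE replicate 2 (adjusted p = 0.057) and in DESeq2 (adjusted p = 0.061).

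The eIF4G scaffolds could be followed well only through Eif4g3, with 81.5 and 89.8 CPM in control and 85.3 and 86.1 CPM in PE. Those values overlap, and its log2 fold change was -0.00 ± 0.06, turning to 0.17 and a call (edgeR adjusted p = 0.015) once a trend of the ratios with ORF length was removed. Eif4g1 had 22889 P-sites but 22, 28, 14 and 24 counts in control replicates 1 and 2 and PE replicates 1 and 2, and was not called. Eif4g2 (DAP5) had 11841 P-sites and 55, 99, 95 and 99 counts in the same order, with 0.42 ± 0.20 (log2, SE) and no call, but a call at 0.75 without control replicate 2 (edgeR adjusted p = 0.012). Eif4a3, a core protein of the exon junction complex, was not called at -0.05 ± 0.04. The cap-binding homologs Eif4e2 and Eif4e3 had log2 fold changes of 0.09 ± 0.14 and 0.35 ± 0.15 (SE) and did not pass.

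Of 4 proteins that bind eIF4E and keep it from eIF4G or move it within the cell, 2 were higher and 0 lower in edgeR's quasi-likelihood test. Eif4ebp1 (chromosome 16, 68955300 to 68968196), the classic mTOR-regulated inhibitor, had 39.5 and 38.6 CPM in control and 55.8 and 53.8 CPM in PE. It rose 1.40-fold (edgeR adjusted p = 9.6e-07) with groups apart. Eif4ebp2 had 14.2 and 10.1 CPM in control and 16.6 and 13.0 CPM in PE, which overlap. It was not called (edgeR adjusted p = 0.12) but became a call without control replicate 1 (adjusted p = 0.0047) or without PE replicate 2 (adjusted p = 0.018). The transporter Eif4enif1, which takes eIF4E to the nucleus and to processing bodies, rose 1.18-fold (edgeR adjusted p = 0.034). That call was lost without any 1 of the 4 libraries (adjusted p of 0.071 to 0.15), with library totals alone (adjusted p = 0.083) and in DESeq2 (adjusted p = 0.22). The ORF listed as Eif4ebp3 is 7845 nt long, where those of Eif4ebp1 and Eif4ebp2 have 351 and 360 nt, so its 31, 35, 20 and 22 counts are not those of an ORF of that size. Its log2 fold change of -0.57 ± 0.35 (SE) did not pass.

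Factors of subunit joining and of the first peptide bonds included the largest change among the members. Eif5a2 (chromosome 2, 115338156 to 115349913), a form of the hypusine-bearing eIF5A, had 6.63 and 6.78 CPM in control and 12.4 and 14.4 CPM in PE. It rose 1.99-fold (log2 1.00 ± 0.16, SE; edgeR adjusted p = 3.7e-06), with both PE libraries far above control. Eif5a, the abundant form, had 313 and 318 CPM in control and 401 and 392 CPM in PE, a 1.26-fold rise (edgeR adjusted p = 1.2e-11). The proteins are identical at 127 of 153 residues. The rise of Eif5a2 exceeded that of Eif5a by 0.67 (log2, 95% confidence interval 0.33 to 1.01), with an adjusted p = 0.043 in edgeR's interaction test over 813 pairs of ORFs. In that test 1.72% of pairs were called with the first ORF higher and 0.246% with it lower. The difference kept its direction but not its call when control replicate 1 (adjusted p = 0.083), control replicate 2 (adjusted p = 0.12), PE replicate 1 (adjusted p = 0.16) or the second PE library (adjusted p = 0.38) was left out.

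Eif6, which keeps the large subunit from joining too early, had 86.9 and 93.8 CPM in control and 123 and 118 CPM in PE, a 1.33-fold rise (edgeR adjusted p = 4.9e-08). Eif5b, the GTPase of subunit joining, had 6272 P-sites but 30, 40, 41 and 28 counts and no call at 0.06 ± 0.30 (log2, SE). The poly(A)-binding proteins did not pass. Pabpc1 had 20.0 and 21.5 CPM in control and 21.5 and 23.3 CPM in PE with 0.0888 counts per P-site, and Pabpc4 had 32.5 and 33.4 CPM against 28.8 and 29.8 CPM with 0.308 counts per P-site. Etf1, the release factor that reads stop codons, had 67.3 and 69.0 CPM in control and 90.2 and 87.5 CPM in PE, and rose 1.30-fold (edgeR adjusted p = 1.0e-06) with 0.435 counts per P-site.

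Of 4 enzymes that modify elongation factors, 1 was higher and 1 lower. Eef2k (chromosome 1, 190798705 to 190839693), the calcium-dependent kinase that inhibits eEF2, had 28.2 and 25.2 CPM in control and 18.5 and 16.3 CPM with PE. The log2 fold change was -0.61 ± 0.11 (SE; edgeR adjusted p = 2.6e-05), and both PE libraries lay below control. Eef1akmt1, a lysine methyltransferase of eEF1A, had 10.4 and 7.70 CPM in control and 13.3 and 13.1 CPM in PE, 1.47-fold higher (edgeR adjusted p = 0.0039), a call lost without control replicate 2 (adjusted p = 0.15) and in DESeq2 (adjusted p = 0.076). Eef1akmt2 and the eEF2 methyltransferase Eef2kmt had 0.31 ± 0.14 and 0.50 ± 0.29 (log2, SE) and did not pass, although Eef1akmt2 was called without PE replicate 2 (edgeR adjusted p = 0.036).

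Paralogs were compared directly wherever both ORFs had a mean count of at least 10. Of 11 such pairs, Eif5a2 against Eif5a was called. Eef1a2 and Eef1a1, identical at 427 of 462 residues, differed by -0.08 in log2 fold change (95% confidence interval -0.25 to 0.10; edgeR adjusted p = 0.73). Eif4a2 and Eif4a1 differed by 0.02 (interval -0.20 to 0.25), and Eif4h and Eif4b by 0.04 (interval -0.17 to 0.24). Eef1d exceeded Eef1b2 by 0.20 (interval -0.00 to 0.40; edgeR adjusted p = 0.38), and was called in a model without a library term (adjusted p = 0.015). The intervals for Eif4e2 against Eif4e (-0.91 to 0.07), Eif4ebp2 against Eif4ebp1 (-0.68 to 0.29) and Pabpc4 against Pabpc1 (-0.69 to 0.13) were wide. For near-identical pairs such as Eef1a1 with Eef1a2 and Eif4a1 with Eif4a2, reads could be split between copies, so their values are uncertain.

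P-site density, the authors' number of in-frame P-sites per kilobase, scaled to depth (RPKM) and pooled over libraries, allows levels to be compared between ORFs of different length. Eef1a1 was densest with 1422, followed by Eif5a with 824, Eef2 with 527, Eif4a1 with 427, Eef1a2 with 363 and Eif1 with 351. Within eIF2B, eIF2 and eIF3 the spread was narrower than among the elongation ORFs. The 11 eIF4 ORFs spread more widely than these, from 7.40 to 427. The 5 eIF2B subunits had densities of 15.8 to 22.5, a 1.42-fold range, the 3 eIF2 subunits 93.3 to 120, and the 10 eIF3 subunits 52.8 to 127. The 8 elongation ORFs spanned 4.98 for Eefsec to 1422 for Eef1a1. With counts in place of P-sites Eef1a2 stood above Eef1a1, at 878 ± 12.9 against 156 ± 2.10 CPM in control (SD, n = 2) for ORFs of 1389 and 1386 nt, so their order depends on which column is read. These densities have no replicates and no error.

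**Figure D3:**
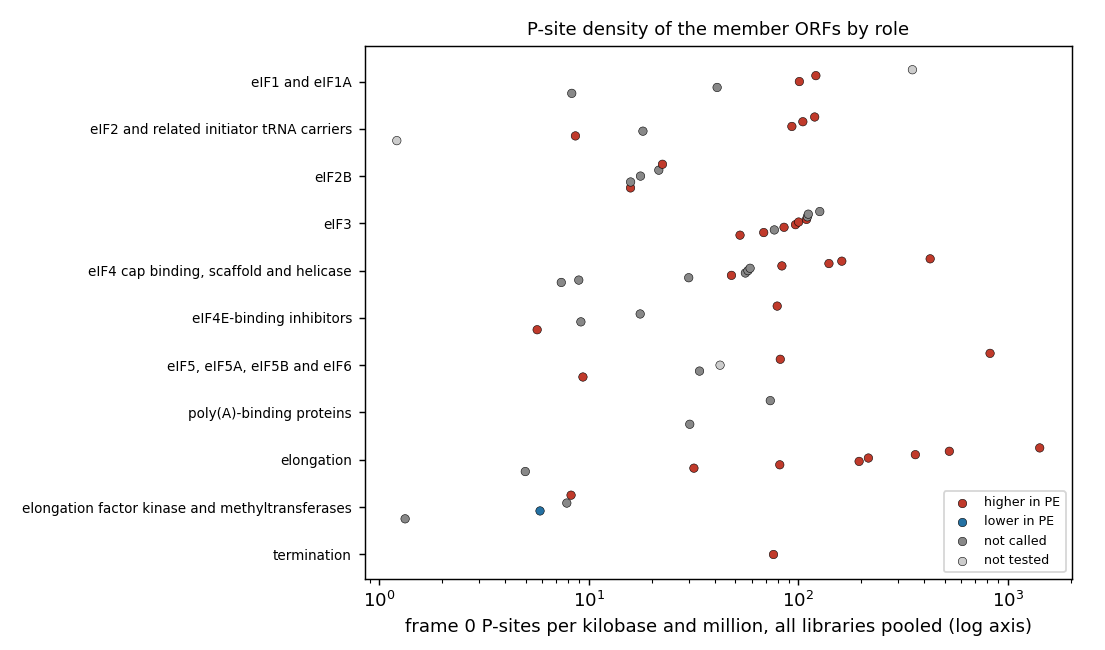
Pooled in-frame P-site density of the 61 member ORFs by role, on a log axis, coloured by the change after PE. The eIF2B subunits sit together at 15.8 to 22.5 and the eIF3 subunits at 52.8 to 127, while elongation ORFs spread from 4.98 to 1422.

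The reading frame was clear in nearly all members, with a median of 84.7% of P-sites in frame 0 against 84.2% over all genes with an annotated ORF. Eif4e2 was lowest with 68.5%, and Eif2s3y highest with 94.0% of its 134 P-sites. Counts and P-sites parted for part of the members: 16 of the 58 tested had under 0.5 counts per P-site. In edgeR's quasi-likelihood test 8 of those 16 were called higher and 0 lower, against 25 higher and 1 lower of the remaining 42. For comparison, 21.4% of all ORFs tested were higher and 21.3% lower.

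**Figure D4:**
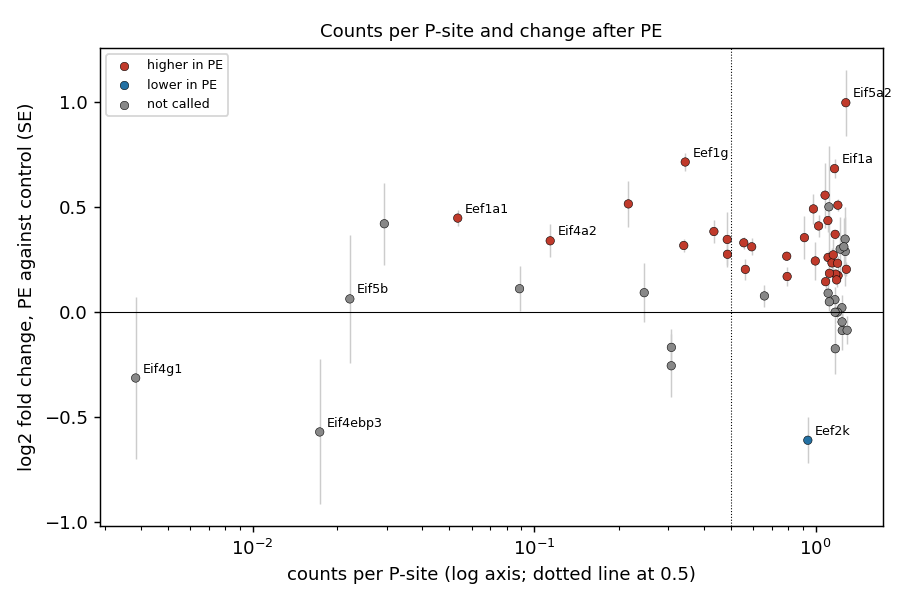
Log2 fold change with its standard error against counts per P-site (log axis) for the 58 tested members. Eif4g1, Eif4ebp3, Eif5b and Eif4g2, at 0.00384 to 0.0294 counts per P-site, have wide errors and no call, while called members lie on both sides of the dotted line at 0.5.

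Member genes carried 17 ORFs outside the annotated class, among them 3 upstream ORFs, 3 that overlap the start of the coding sequence and 6 downstream ORFs. Only 5 of these 17 had enough counts to be tested. The overlapping upstream ORF of Eif5 (chromosome 6, 136004319 to 136004504), 183 nt long, had 83 and 85 counts in control and 122 and 98 in PE, a log2 fold change of 0.46 ± 0.18 (SE; edgeR adjusted p = 0.038). It was the one called, and 21.4% of all ORFs tested were higher. This ORF had 0.205 counts per P-site and 73.1% of its 1896 P-sites in frame 0. Its span runs past the annotated Eif5 start at 136004441, so part of it lies on coding sequence. The annotated Eif5 ORF, with 5198 P-sites, had 6, 10, 11 and 4 counts, so that pair could not be tested. The upstream ORF of Eif2d (chromosome 13, 47935255 to 47935308) had 27 and 30 counts in control and 18 and 21 in PE, against a rise of the coding ORF. The difference of their log2 fold changes was -0.82 (95% confidence interval -1.57 to -0.07), but not called after adjustment over all pairs (edgeR adjusted p = 0.31). Downstream ORFs of Eif1 and Eif1b had log2 fold changes of -0.45 ± 0.25 and -0.37 ± 0.32 (SE), and the overlapping upstream ORF of Eif4e2 had 0.45 ± 0.50, none of them called.

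Other genes of the translation machinery were described from lists. Over 5 lists of 66 genes, 58 had an annotated ORF and 56 were tested, of which 14 were higher and 8 lower, with a median log2 fold change of 0.08. Over all genes with an annotated ORF 22.3% were higher and 22.8% lower, so the share higher in the lists is near that background. Among 14 kinases and phosphatases acting on translation factors, 2 were higher and 1 lower. Ppp1cb, a catalytic subunit of protein phosphatase 1, had 232 and 233 CPM in control and 381 and 373 CPM in PE, a 1.62-fold rise (edgeR adjusted p = 2.4e-19). The p90 ribosomal S6 kinase Rps6ka1 rose by 0.61 ± 0.17 (log2, SE) and Rps6ka3 fell by 0.25 (SE 0.03). The 4 kinases of eIF2α were not called, Eif2ak3 (PERK) among them with a log2 fold change of -0.06 ± 0.10.

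Of 17 cofactors and inhibitors of initiation, 6 were higher and 2 lower in edgeR's quasi-likelihood test. The helicase Ddx3x rose 1.16-fold, from 491 and 490 CPM to 567 and 566 CPM. Tpt1, itself a TOP mRNA, rose 1.48-fold with 0.0613 counts per P-site. Larp4b, a poly(A)-associated protein, fell by 0.89 with 0.123 counts per P-site, and the deadenylase subunit Pan2 fell by 0.58 (log2). Of 7 rescue and recycling factors, Pelo and Hbs1l were higher by 0.13 each but passed narrowly (edgeR adjusted p of 0.038 and 0.0499973). Ltn1 and Gtpbp1 were lower, at -0.17 and -0.21. Among 7 enzymes that make the hypusine of eIF5A or the diphthamide of eEF2, Dph5 and Dnajc24 were higher by 0.48 and 0.45. Dph5 had an edgeR adjusted p of 0.0049, and Dnajc24 passed narrowly at 0.045. Dhps, which starts hypusine synthesis, was lower at -0.25 ± 0.07 (SE; edgeR adjusted p = 0.0040). Of 11 mitochondrial translation factors, Mtif3 and Tufm were higher by 0.30 and 0.10, and Mtif2 and Gfm2 lower at -0.40 and -0.33.

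The authors' deposited table gives adjusted p-values for 59 of the 61 members, with 26 higher and 1 lower at the same threshold. All 27 are among the 34 called here. Both rest on the same 4 libraries, so this overlap is not separate evidence. In the authors' deposited table Eef2k has a log2 fold change of -0.61, Eif5a2 of 1.00 and Eef1g of 0.71.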

How the data were processed

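Ribosome footprints of 4 libraries were analysed, 2 control and 2 PE. Trimming and alignment tools named in the submitters' processing notes are STAR 2.4.2a, Bowtie 1.1.2 and cutadapt 2.0, with genome Rnor_6.0. The counting program was not given in the sources used here. Raw counts for 18847 ORFs were deposited. Per the file headers, the annotation adds the authors' DESeq2 log2 fold changes, p-values, a Wald score and a normalized mean signal, P-site counts per frame and their RPKM. Of all P-sites, 84.7% were in frame 0.

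Counts were filtered with filterByExpr, scaled by TMM (factors 0.982 to 1.02), then tested in edgeR 4.0.16 under R 4.3.3 with limma 3.58.1, by the robust quasi-likelihood test without a replicate term, with Benjamini-Hochberg adjustment over 12609 ORFs. Each SE is the log2 fold change over the root of F. DESeq2 1.42.0 was an alternative. The common coefficient of biological variation was 2.18%, so small changes pass. Replicates varied beyond what sampling gives (chi-square per degree of freedom 1.62 and 1.60). Pairs were tested as an interaction of ORF and treatment with a library term, where each ORF had a mean count of at least 10. Residue identities come from global alignment of the deposited ORF translations. The main test, the fit without the ORF length trend, the pair test with a library term and DESeq2 were tried on simulated data. The other alternative settings were not.

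Named members were up to 4 per role and direction with the smallest p and groups that do not overlap, a set list of central factors and those not testable, and up to 2 genes per direction of each further list. Other members and the paralog pairs are named to account for every gene. Members and lists were chosen with earlier results of these data known. The start window of 1 member is not reported here. Per-sample columns left unused numbered 0.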

Additional observations from a re-analysis of the deposited data

Results flagged for a closer look

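For 3 members the deposited annotation lists P-sites on the annotated ORF while the count table was too low to test. They were flagged because their P-sites exceed 3, the counts per library that a count of 0 would allow. Only Eif2s3y had 0 counts in every library, and pooled P-sites are a different measure, so that limit served as a flag alone. Eif1, which scans for the start codon, had 11260 P-sites, pooled over libraries. Eif5, which triggers GTP hydrolysis on eIF2, had 5198. The Y-linked Eif2s3y had 134. P-sites are not given per library, so no comparison of PE with control can be made from them.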

How the results depend on the processing

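Of the 34 members called, 27 kept direction and call under all 10 alternative settings or left-out libraries, and 7 (Eef1e1, Eif4enif1, Eif4b, Eif2d, Eif2b2, Eif2b3 and Eef1akmt1) lost the call in at least 1. The count of members higher ran from 25 (members with at least 0.5 counts per P-site) and 26 (DESeq2) to 33, with 30 to 32 when a library was left out, and the count lower was 1 throughout. DESeq2 called 1724 ORFs higher and 1721 lower, where edgeR called 2696 and 2690. Of the further translation genes, 14 were higher in edgeR, but 8 with library totals alone and 6 in DESeq2, and 9 to 11 with a library left out. Those without control replicate 1 or without PE replicate 2 numbered 9. Pairs with the first ORF higher numbered 14, 34 without a library term and 0 to 12 when a library was left out, and with it lower 2, 7 and 0 to 1. Eif4g3 went from -0.00 to 0.17 after removal of the length trend. The cause of these shifts was not tested. The replicate number as a block left the members at 33 higher and 1 lower, and 2721 ORFs higher and 2714 lower. The labels state no pairing of same-numbered libraries, and the correlation between their deviations from the group means was -0.015. That value cannot show whether they shared a culture or a batch. With 2 libraries a group, changes of members with few counts, such as Eif4g1 and Eif5b, could not be resolved.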
